A study of Rattus norvegicus with 12 samples.

Results

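Messenger RNAs of the sarcomere and the Z-disc were followed in cultured heart muscle cells that had received different forms of the histone acetyltransferase KAT6A. A list of 35 genes was taken, and its members were found by gene symbol in the raw count table, with at least 10 counts in at least 3 libraries. By this rule 32 genes were kept, out of 32883 gene rows in the table. Ankrd23 was the sparsest gene kept, with 8 to 24 counts per library and 11 libraries at 10 or more. Lmod2 lay far below the limit, with 0 to 4 counts and no library at 10 or more. The cause of its low count was not tested. Ttn and Tcap were not analysed here, because no row was matched to their symbols. The cells were primary ventricular cardiomyocytes of newborn rats, taken 2 days after an adenovirus carried in its cargo. The cargo was LacZ, a bacterial gene used as the control, or human KAT6A as the wild-type protein (WT), as K815R, in which a lysine is replaced by arginine and resists acetylation, or as K815Q, in which it is replaced by glutamine and mimics acetylation. All groups therefore carry a virus, and cells without virus are not part of the comparisons. Each of the 4 groups had 3 libraries. Nothing in the labels says whether these came from separate cell preparations, so the p-values measure the spread between libraries, which may be technical. The title names growth, metabolic adaptation and AMPK as the subject of the study.

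The sarcomere is the contractile unit of striated muscle. Thin filaments of actin carry tropomyosin and the troponin complex, which makes contraction depend on calcium, and thick filaments of myosin carry the light chains and myosin-binding protein C. Thin filaments are anchored at the Z-disc by alpha-actinin and its partners, thick filaments are cross-linked at the M-band, and desmin ties neighbouring myofibrils together. In the newborn heart several of these proteins switch from fetal to adult forms, and chaperones and ubiquitin ligases control how the myofibril is built and taken apart.

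Gene counts per library lay between 19102048 and 25451686, and the 32 genes together took 4.69% to 5.10% of them. That share was 4.88 ± 0.165% in LacZ, 4.94 ± 0.0671% in WT, 5.05 ± 0.0735% in K815R, with 4.88 ± 0.196% in those labelled K815Q (mean ± SD, n = 3 each), and the ranges of all 4 groups overlapped. Levels are given as CPM, counts scaled to a common library size with TMM factors. They are not divided by transcript length, so levels of different genes are not compared. Rat Kat6a, used here as a check of the cargo, lay at 45.2 to 53.6 CPM in LacZ, 82.0 to 106 in WT and 101 to 122 in K815R. The log2 fold change over LacZ was 0.95 in WT and 1.17 in K815R. These reads were counted on the rat gene. Whether they come from the human cargo or from the cells' own gene was not tested. In labelled K815Q it lay at 43.4 to 49.97 CPM, which overlaps LacZ. By this measure these libraries go against their label. They are called labelled K815Q below, and have no other support for a direction than the label. Of the 12 libraries, LacZ replicate 3 and K815Q replicate 1 were each lowest for 9 of the 32 genes, K815R replicate 2 was highest for 5 and lowest for 5, and LacZ replicates 1 and 2 were highest for none. In the median, the coefficient of variation between replicates was 4.97% for the 32 genes and 6.90% for all tested genes.

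Most sarcomere genes moved little, as did most genes tested. The median absolute log2 fold change against LacZ was 0.089 in WT, 0.081 in K815R and 0.088 in labelled K815Q. Over all tested genes it was 0.096, 0.083 and 0.11 in the same order. Over 6 pairwise comparisons, 10 of 192 tests were called (an adjusted p under 0.05 over all 14063 tested genes, by edgeR's quasi-likelihood test), in 8 genes. Mybpc3, Myom2, Ldb3 and Unc45b rose in WT against LacZ, Myom2 rose in K815R, and Myom2 and Trim63 rose while Xirp2 and Pdlim5 fell in labelled K815Q. Csrp3 was higher in K815R than in WT. The changes ran from 12.6% to 29.3%. Asked whether the 4 groups differed at all, edgeR called 6 genes, adding Actc1 to those named, and 23 genes were called nowhere. Leaving aside the sparse Ankrd23, the 95% intervals of the other 31 genes in all 6 comparisons lay between -0.58 and 0.54 on the log2 scale, that is between 0.671-fold and 1.45-fold.

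These counts can be read against all genes. Against LacZ, 4 of 32 genes were called in WT, all higher, where 5.34% of all tested genes were called and 1.95% were higher. In K815R 1 of 32 was called, higher, where 2.47% of all were called and 0.740% were higher. In labelled K815Q 4 of 32 were called, where 7.85% of all were, with 2 higher and 2 lower beside 2.87% and 4.98%. The test for any difference called 6 of 32 genes, against 8.13% of all genes. The median log2 fold change of the 32 genes against LacZ was 0.076 in WT, 0.066 in K815R and 0.034 in labelled K815Q, beside 0.0087, 0.0034 and 0.0065 over all tested genes. These 3 comparisons share the LacZ libraries. All 3 libraries lay apart from LacZ in 11 of the 32 genes in WT, 10 in K815R and 10 in labelled K815Q, where 24.6%, 18.7% and 28.4% of all tested genes did so. LacZ had the lowest group mean for 16 of the 32 genes and the highest for 3, whereas over all tested genes LacZ was lowest for 30.8% and highest for 27.2%.

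**Figure D1:**
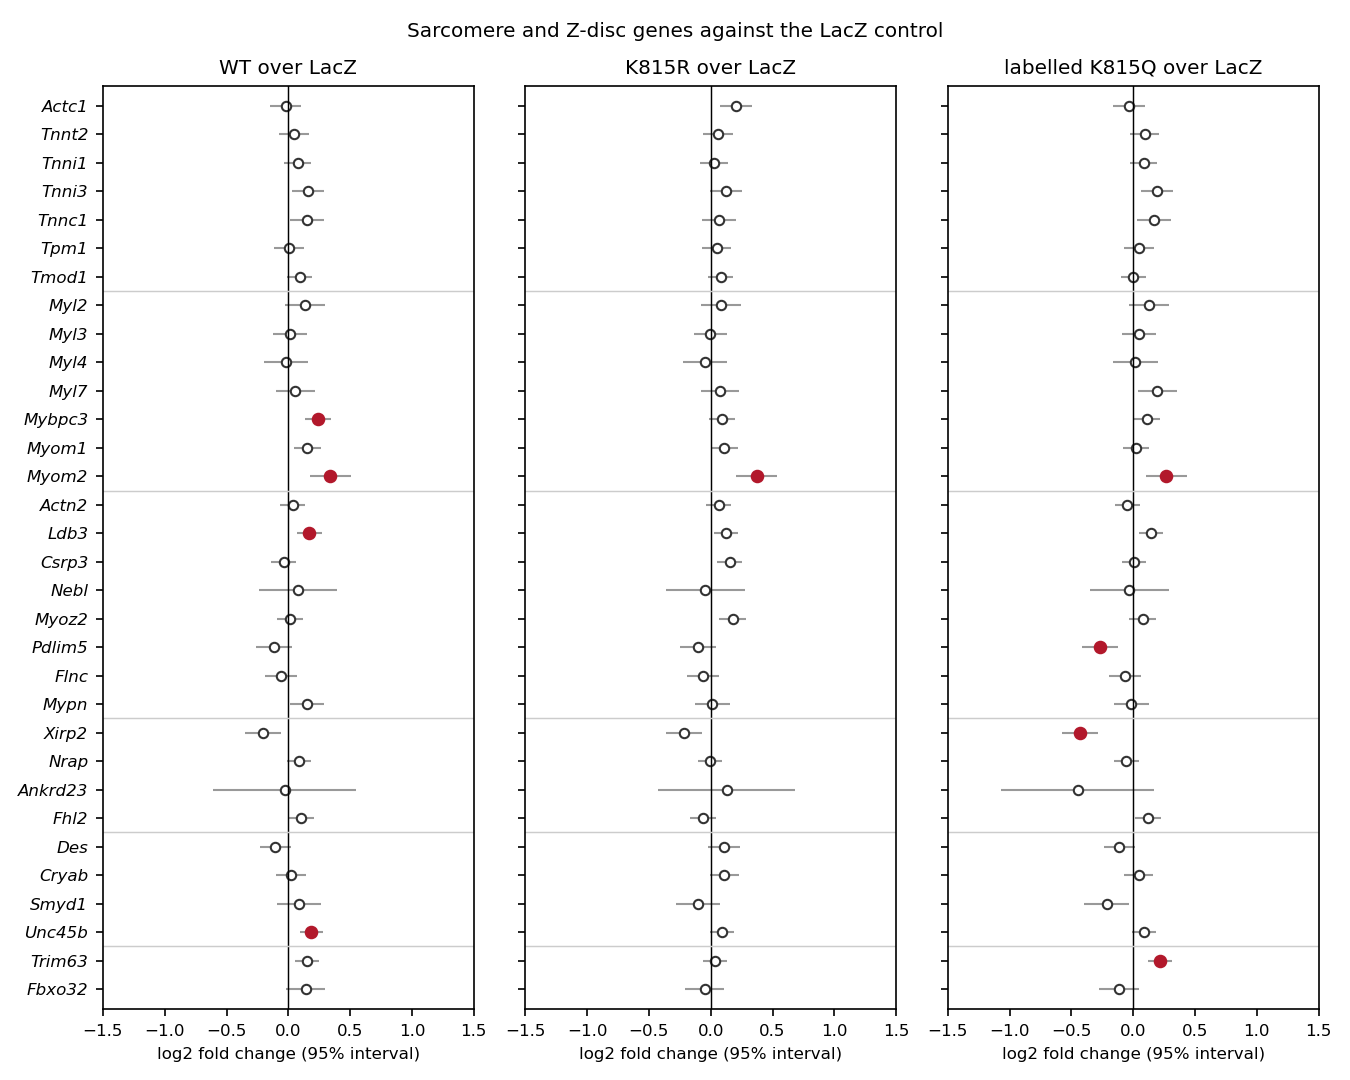
Log2 fold change against LacZ of the 32 sarcomere and Z-disc genes in WT, K815R and labelled K815Q; points are estimates, bars are 95% intervals, filled red points passed an adjusted p under 0.05, and grey lines part the roles. Filled points are 4, 1 and 4 from left to right, with Xirp2 at -0.43 and Myom2 at 0.37 the farthest of them from 0 on either side.

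Among the 9 genes called in any test, RefSeq (assembly GRCr8) gives a promoter for 7. These are Mybpc3, Ldb3 and Unc45b, which rose in WT, Xirp2, Trim63 and Pdlim5, which changed in labelled K815Q, and Actc1. For the first 5 of these the 250 bases before the transcription start are printed to show which binding motifs of muscle regulators lie there. Capitals mark matches, sought on both strands, to the TATA motif TATAAA, the MCAT element CATTCC bound by TEAD factors, the forkhead motif GTAAACA, the GATA motif GATAA, the CArG box bound by SRF and the MEF2 site.
Mybpc3 (chr3:97550811-97551060, plus strand): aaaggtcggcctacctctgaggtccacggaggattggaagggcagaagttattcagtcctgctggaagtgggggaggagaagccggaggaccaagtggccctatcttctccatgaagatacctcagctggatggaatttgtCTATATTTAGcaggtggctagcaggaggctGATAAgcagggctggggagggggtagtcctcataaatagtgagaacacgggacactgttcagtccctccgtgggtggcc
Ldb3 (chr16:9924680-9924929, minus strand): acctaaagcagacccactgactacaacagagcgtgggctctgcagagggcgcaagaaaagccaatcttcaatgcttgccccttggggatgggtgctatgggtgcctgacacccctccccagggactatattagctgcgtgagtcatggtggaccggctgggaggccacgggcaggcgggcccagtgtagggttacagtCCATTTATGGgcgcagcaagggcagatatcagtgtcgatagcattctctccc
Unc45b (chr10:68342761-68343010, plus strand): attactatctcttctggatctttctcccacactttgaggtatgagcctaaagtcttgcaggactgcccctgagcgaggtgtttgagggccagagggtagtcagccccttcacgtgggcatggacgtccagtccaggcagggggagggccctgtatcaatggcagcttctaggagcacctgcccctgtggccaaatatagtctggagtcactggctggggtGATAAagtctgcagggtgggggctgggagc
Xirp2 (chr3:72533936-72534185, plus strand): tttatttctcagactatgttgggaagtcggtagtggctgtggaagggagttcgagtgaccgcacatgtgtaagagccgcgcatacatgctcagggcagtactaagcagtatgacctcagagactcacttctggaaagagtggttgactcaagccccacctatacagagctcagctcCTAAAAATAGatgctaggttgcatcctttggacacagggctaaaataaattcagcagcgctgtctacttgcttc
Trim63 (chr5:151816986-151817235, plus strand): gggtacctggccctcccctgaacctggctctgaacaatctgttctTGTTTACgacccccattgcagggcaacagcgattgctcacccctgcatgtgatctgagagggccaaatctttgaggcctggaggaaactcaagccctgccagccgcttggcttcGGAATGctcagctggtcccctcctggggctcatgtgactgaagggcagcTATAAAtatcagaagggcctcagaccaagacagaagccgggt

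Mybpc3 and Xirp2, which were called in opposite directions in different groups, both hold a MEF2 site, beginning 109 and 74 bases before the start. Ldb3 holds a CArG box from 52 bases before it, Unc45b a GATAA from 30 bases before it, and Trim63 the TATA motif from 42 bases before it. The MCAT element and the forkhead motif of Trim63 lie on the opposite strand, from 91 and 205 bases before the start. Of the genes not printed, Pdlim5 held none of the marked motifs in the window of 300 bases around the start, and the CArG box of Actc1, the only motif found there, begins 2 bases after the start. A promoter was matched for 25 of the 32 genes, in 27 rows of the table. In this window, which runs 50 bases past the start, 3 of these 27 rows held a MEF2 site and 6 a CArG box, beside 0.565% and 1.64% of all 33469 promoters. CATTCC was present in 8 of 27, GATAA in 6, TATAAA in 5 and GTAAACA in 1, beside 14.2%, 26.5%, 14.2% and 3.78% of all promoters. The E-box CANNTG was present in 23 of 27 and in 72.1% of all. A match describes the letters and not the binding of a factor. Myom2 and Csrp3 had no entry.

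On the thick filament and at the M-band, 2 of 7 genes rose in WT against LacZ, 1 in K815R and 1 in labelled K815Q, and none fell. Over all tested genes, 1.95%, 0.740% and 2.87% were called higher in these comparisons. The gene called in K815R and in labelled K815Q was the same, Myom2. Mybpc3 (ENSRNOG00000012307) encodes cardiac myosin-binding protein C, which sets how readily myosin heads engage actin. It stood at 1546, 1576 and 1555 CPM in LacZ, 1779, 1869 and 1871 in WT, 1609, 1683 and 1701 in K815R, with 1612, 1658 and 1771 in labelled K815Q. All 9 libraries of the other groups lay above all 3 LacZ libraries, and WT lay above the others. WT exceeded LacZ by a log2 fold change of 0.24 (SE 0.0509, edgeR adjusted p 0.00568), or 18.0%, and the call held in all 6 fits without a library of the comparison. In K815R and in labelled K815Q the log2 fold change was 0.094 and 0.11, and neither was called.

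Myom2 (ENSRNOG00000011754) encodes M-protein, a cross-linker of thick filaments at the M-band, and was the only gene called in all 3 comparisons with LacZ. LacZ stood at 72.8, 81.7 and 73.9 CPM, WT at 96.1, 92.7 and 99.6, K815R at 94.4, 102 and 99.2, and labelled K815Q at 77.8, 104 and 93.0. WT and K815R lay wholly above LacZ, while K815Q replicate 1 lay inside the LacZ range. The log2 fold change was 0.34 in WT (SE 0.0785, edgeR adjusted p 0.0167), 0.37 in K815R (SE 0.0781, edgeR adjusted p 0.0157) and 0.27 in labelled K815Q (SE 0.0788, edgeR adjusted p 0.0467). Of the 6 fits lacking a library, 2, 2 and 1 kept these calls. In labelled K815Q the log2 fold change ran from 0.17, without K815Q replicate 2, to 0.37, and of all 12 fits lacking any 1 library, those of WT and K815R included, 1 kept the call. Without LacZ replicate 1 or replicate 3 all 3 were lost, and the adjusted p over such fits reached 0.0872, 0.0910 and 0.178. RLE scaling, or a fit of the 6 libraries compared, also ended the call in labelled K815Q.

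The light chains and the related Myom1 did not pass the test in any comparison. Myl2 and Myl3 encode the ventricular regulatory and essential myosin light chains, and Myl7 and Myl4 their atrial counterparts, Myl4 being made in the fetal ventricle as well. Against LacZ, Myl2 had log2 fold changes of 0.14, 0.083 and 0.13 in WT, K815R and labelled K815Q. Myl2 stood at 1865, 1859 and 1688 CPM in LacZ, 2102, 1853 and 1997 in WT, 1993, 1679 and 2059 in K815R, with 1933, 1821 and 2157 in labelled K815Q, and every group overlapped LacZ. Myl7 stood at 53.4, 49.4 and 45.1 CPM in LacZ, 49.5, 51.6 and 52.5 in WT, 59.2, 46.4 and 50.2 in K815R, with 54.7, 56.2 and 58.3 in labelled K815Q. The last lay above LacZ, by a log2 fold change of 0.19 that edgeR did not call (adjusted p 0.112). Myl3 stood at 5727, 5841 and 5197 CPM in LacZ, 5599, 5648 and 5652 in WT, 5988, 5009 and 5723 in K815R, with 5854, 5428 and 6016 in labelled K815Q. Myl4 stood at 846, 835 and 780 CPM in LacZ, 836, 753 and 838 in WT, 834, 700 and 852 in K815R, with 811, 744 and 936 in labelled K815Q. For both of these all groups overlapped, and K815R replicate 2 was the lowest of the 12 libraries.

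In the thin filament none of 7 genes passed the test in any pairwise comparison by edgeR. An unadjusted p under 0.05 against LacZ was found for 2 of them in WT (Tnni3 and Tnnc1), 1 in K815R (Actc1) and 2 in labelled K815Q (Tnni3 and Tnnc1), where 19.1%, 13.8% and 24.2% of all tested genes had one. Their log2 fold changes against LacZ ran from -0.023 to 0.16 in WT, 0.027 to 0.21 in K815R and -0.035 to 0.19 in labelled K815Q. Actc1 (ENSRNOG00000008536), cardiac alpha-actin, was called in the test for any difference (edgeR adjusted p 0.0304). It stood at 10756, 10793 and 9904 CPM in LacZ, 10648, 10604 and 9708 in WT, 12330, 12699 and 11247 in K815R, with 10249, 10022 and 10439 in labelled K815Q. All 3 K815R libraries lay above the 9 others. The log2 difference of K815R was 0.21 from LacZ, 0.23 from WT and 0.24 from labelled K815Q, and none of these was called (edgeR adjusted p 0.0817, 0.0513 and 0.0896). DESeq2 called all 3, with adjusted p of 0.0160, 0.00524 and 0.00682, and 4 of 12 fits lacking a library lost the call of any difference. The coding sequence of Actc1 is close to that of Acta1, and reads that aligned to more than 1 place were not counted, so its level may leave out some of its reads.

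Tnni3 and Tnni1 encode the cardiac and the slow skeletal troponin I, the inhibitory subunit that switches from the latter to the former around birth. Tnni3 stood at 1413, 1400 and 1278 CPM in LacZ, 1507, 1530 and 1538 in WT, 1565, 1340 and 1547 in K815R, with 1601, 1443 and 1623 in labelled K815Q. WT and labelled K815Q lay above LacZ, and K815R replicate 2 lay inside its range. The log2 fold changes were 0.16, 0.12 and 0.19 (edgeR adjusted p 0.141, 0.400 and 0.0608), and DESeq2 called the last (adjusted p 0.0400). Tnni1 stood at 1291, 1257 and 1182 CPM in LacZ, 1269, 1349 and 1310 in WT, 1284, 1198 and 1319 in K815R, with 1363, 1247 and 1341 in labelled K815Q, with all groups overlapping LacZ. Among the others, Tnnt2 (troponin T), Tnnc1 (the calcium-binding subunit), Tpm1 (tropomyosin) and Tmod1 (a cap of the thin filament's pointed end) had adjusted p of 0.125 or more in every pairwise comparison by edgeR.

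The balance of developmental isoforms was measured within each library, where it does not depend on scaling. Tnni1 took 47.7 ± 0.371% of the summed Tnni1 and Tnni3 counts in LacZ, 46.2 ± 0.604% in WT, 46.1 ± 1.08% in K815R, with 45.9 ± 0.561% in labelled K815Q (mean ± SD, n = 3 each). The 3 LacZ libraries, at 47.3% to 48.0%, lay above the 9 others, at 45.1% to 47.2%. An exact permutation test asked for any difference of the log2 ratio among the 4 groups, over 369600 assignments of the libraries to groups. It gave a p of 0.0588, or 0.176 adjusted over the 3 ratios, with the group means 0.11 apart at most. LacZ against the 9 others was not tested. Without K815R replicate 2 the p of the exact test was 0.0138, and without K815R replicate 1 it was 0.0310, both unadjusted. Leaving out other libraries also raised the p above that of the full set, as the last section gives. Myl7 took 2.52% to 2.79% of Myl7 and Myl2 counts in the group means (p 0.466, exact permutation test, 0.699 adjusted), and Myl4 took 12.5% to 12.8% of Myl4 and Myl3 counts (p 0.886 before and after adjustment, exact permutation test). Between 2 groups of 3 libraries the smallest exact p is 0.10, so pairs of groups were not tested.

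**Figure D2:**
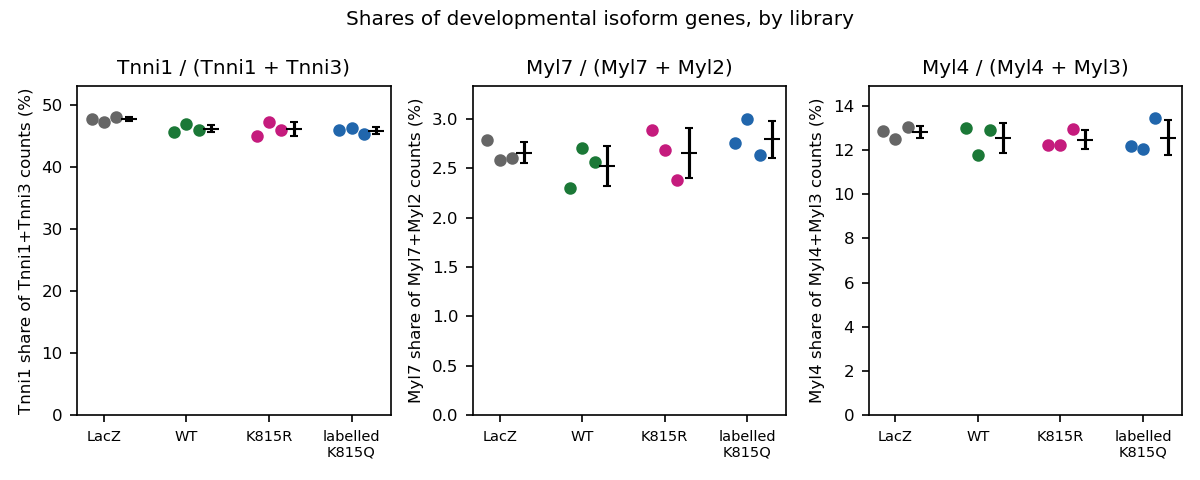
Share of counts of the fetal or atrial gene in 3 gene pairs by group (percent, axis from 0); points are libraries, and the line with whiskers is the mean ± SD of 3 libraries. LacZ has the highest Tnni1 share, at 47.3% to 48.0%, and the group ranges of the other pairs overlap.

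At the Z-disc, 1 of 8 genes rose in WT against LacZ, where 1.95% of all tested genes were called higher. In labelled K815Q 1 fell, where 4.98% of all were called lower. None passed the test in K815R by edgeR (3 had an unadjusted p under 0.05, beside 13.8% of all genes, and DESeq2 called 1, Myoz2). Ldb3 (ENSRNOG00000059166) encodes a PDZ and LIM domain protein, also called Cypher or ZASP, that binds alpha-actinin. It stood at 553, 545 and 578 CPM in LacZ, 654, 631 and 601 in WT, 620, 606 and 600 in K815R, with 621, 625 and 602 in labelled K815Q. All 9 libraries of the other groups lay above LacZ. The log2 fold change was 0.17 in WT (SE 0.0476, edgeR adjusted p 0.0357), 0.12 in K815R and 0.14 in labelled K815Q (edgeR adjusted p 0.210 and 0.0687), and DESeq2 called the last (adjusted p 0.0338). The WT call was kept in 2 of 6 fits lacking a library, with adjusted p up to 0.173. It was lost without LacZ replicate 1 or 2 or WT replicate 1 or 2, without K815R replicate 3 (edgeR adjusted p 0.0572), in a fit of the 6 libraries compared, and in a fit without labelled K815Q.

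Pdlim5 (ENSRNOG00000016419) encodes another PDZ and LIM protein of the Z-disc, a scaffold for protein kinases. LacZ stood at 221, 223 and 242 CPM, WT at 202, 217 and 215, K815R at 196, 243 and 199, and labelled K815Q at 182, 200 and 187. WT and labelled K815Q lay below LacZ, whereas K815R replicate 2 was the highest of all 12. The fall in labelled K815Q was -0.27 (SE 0.0694, edgeR adjusted p 0.0236), or 17.1%, and 2 of 6 fits lacking a library kept it. Without LacZ replicate 2 or 3, or K815Q replicate 1 or 3, it was not called, and the adjusted p over these fits reached 0.127.

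Csrp3 (ENSRNOG00000014327) encodes muscle LIM protein, a Z-disc protein linked to mechanical sensing. It stood at 305, 292 and 274 CPM in LacZ, 283, 287 and 279 in WT, 318, 327 and 324 in K815R, with 303, 287 and 285 in labelled K815Q. The K815R libraries lay above the 9 others. K815R exceeded WT by 0.19 (SE 0.0484, edgeR adjusted p 0.0388), and none of the 6 fits lacking a library kept this call, with adjusted p from 0.0836 to 0.133. It was also lost in a fit without labelled K815Q (edgeR adjusted p 0.0505). Myoz2, a calcineurin-binding Z-disc protein, was likewise highest in K815R, at 504 to 542 CPM against 432 to 484 in LacZ, with a log2 fold change of 0.18 that edgeR did not call (adjusted p 0.0740) and DESeq2 called (adjusted p 0.0406). Actn2 ran from 1313 to 1369 CPM in LacZ, 1348 to 1380 in WT, 1352 to 1452 in K815R and 1262 to 1326 in labelled K815Q. Actn2, Nebl, Flnc and Mypn, which encode alpha-actinin, nebulette, filamin C and myopalladin, had edgeR adjusted p of 0.222 or more in all pairwise comparisons.

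Of the 4 adaptors of the I-band, the intercalated disc and the growing myofibril, Xirp2 fell in labelled K815Q and was the member with the smallest adjusted p of all. In that comparison with LacZ 4.98% of all tested genes were called lower. Xirp2 (ENSRNOG00000034258) encodes an actin-binding repeat protein of the Xin family found at the intercalated disc. It stood at 113, 108 and 126 CPM in LacZ, 109, 92.5 and 98.6 in WT, 98.6, 107 and 92.3 in K815R, with 81.0, 88.9 and 87.2 in labelled K815Q. The last lay below all 9 others, and K815R lay below LacZ as well. Against LacZ the log2 fold change was -0.43 in labelled K815Q (SE 0.0693, edgeR adjusted p 6.66e-04), a fall to 0.742-fold, and all 6 fits lacking a library kept it. In WT and K815R it was -0.21 and -0.22, not called by edgeR (adjusted p 0.0912 and 0.115). Without a filter on low counts both were called (edgeR adjusted p 0.00640 and 0.00826). In RefSeq, Xirp2, Myom2, Actc1, Des and Flnc each overlap 1 long noncoding RNA gene. Smyd1, Cryab, Nrap, Tmod1 and Myl4 each overlap 1 protein-coding gene, Actn2 a tRNA gene and Mypn a pseudogene. The counts of all these genes may be uncertain to that extent. The overlaps are those of RefSeq, whereas the counts were made on Ensembl genes, and their effect on these counts was not tested. Over all genes, 0.46% to 0.50% of reads per library were counted as ambiguous.

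Fhl2, a LIM-only protein of the I-band and nucleus, ran from 347 to 371 CPM in LacZ, 364 to 403 in WT, 331 to 347 in K815R and 368 to 402 in labelled K815Q. K815R lay below WT and below labelled K815Q, by -0.17 and -0.19 on the log2 scale (edgeR adjusted p 0.0985 and 0.120, neither called). Nrap, which takes part in early myofibril assembly, ran from 204 to 241 CPM over all 12 libraries and was not called. Ankrd23, a stress-responsive ankyrin repeat protein, stayed at 0.416 to 1.04 CPM, and its interval in labelled K815Q against LacZ was too wide, at -1.07 to 0.17, to show a change of the size seen elsewhere.

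Desmin and the chaperones gave 1 call in 4 genes, in WT against LacZ, where 5.34% of all tested genes were called. Unc45b (ENSRNOG00000009466) encodes the chaperone that folds the myosin head. It stood at 283, 277 and 284 CPM in LacZ, 310, 335 and 317 in WT, 292, 296 and 310 in K815R, with 299, 294 and 303 in labelled K815Q, with all 9 libraries of the other groups above LacZ. WT exceeded LacZ by 0.19 (SE 0.0466, edgeR adjusted p 0.0180), or 13.8%, and 4 of 6 fits lacking a library kept the call. Without LacZ replicate 2 or WT replicate 2 it was lost (edgeR adjusted p up to 0.127). Smyd1, a methyltransferase that works with this chaperone in myosin assembly, ran from 103 to 124 CPM in LacZ, 115 to 126 in WT, 94.4 to 118 in K815R and 88.6 to 101 in labelled K815Q. The last lay below LacZ and WT, by -0.22 and -0.30 on the log2 scale. In the analysis as reported edgeR called neither (adjusted p 0.133 and 0.119). The difference from WT was called by DESeq2 (adjusted p 0.0332) and by edgeR in a fit of the 6 libraries compared (adjusted p 0.00663). Without a filter and without K815R replicate 2, edgeR called the differences from WT (adjusted p 0.00948 and 0.0276) and from LacZ (adjusted p 0.0345 and 0.0463). Des, which encodes desmin, stood at 2860, 3228 and 2783 CPM in LacZ, 2804, 2592 and 2848 in WT, 3175, 3102 and 3276 in K815R, with 2714, 2620 and 2880 in labelled K815Q. K815R lay above WT and above labelled K815Q, by 0.21 and 0.22 (edgeR adjusted p 0.0704 and 0.129), which DESeq2 called (adjusted p 0.0206 and 0.0393). Cryab, the small heat shock protein alpha B-crystallin that protects desmin, was not called in any comparison.

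Both ubiquitin ligases of muscle atrophy were measured. Trim63 (ENSRNOG00000016543), which encodes MuRF1, stood at 113, 116 and 112 CPM in LacZ, 129, 129 and 121 in WT, 116, 115 and 118 in K815R, with 135, 128 and 132 in labelled K815Q. WT and labelled K815Q lay above LacZ and above K815R, and K815R overlapped LacZ. The rise in labelled K815Q was 0.22 (SE 0.0468, edgeR adjusted p 0.00673), or 16.1%. It was kept in 5 of 6 fits lacking a library, and without K815Q replicate 1 the edgeR adjusted p was 0.0501. In WT the log2 fold change was 0.15 and not called (edgeR adjusted p 0.0592), and upper-quartile scaling made it a call (edgeR adjusted p 0.0493). Fbxo32 (ENSRNOG00000006738), which encodes atrogin-1, stood at 62.9, 66.2 and 75.8 CPM in LacZ, 76.5, 72.4 and 76.8 in WT, 65.0, 71.5 and 61.5 in K815R, with 57.2, 69.8 and 62.4 in labelled K815Q. All WT libraries lay above K815R and above labelled K815Q. Against WT the log2 fold change was -0.19 in K815R and -0.25 in labelled K815Q. Neither was called by edgeR in the analysis as reported (adjusted p 0.258 and 0.127). The latter was called by edgeR in a fit of the 6 libraries compared, without K815Q replicate 2 and without a filter (adjusted p 0.0463, 0.0452 and 0.00665).

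**Figure D3:**
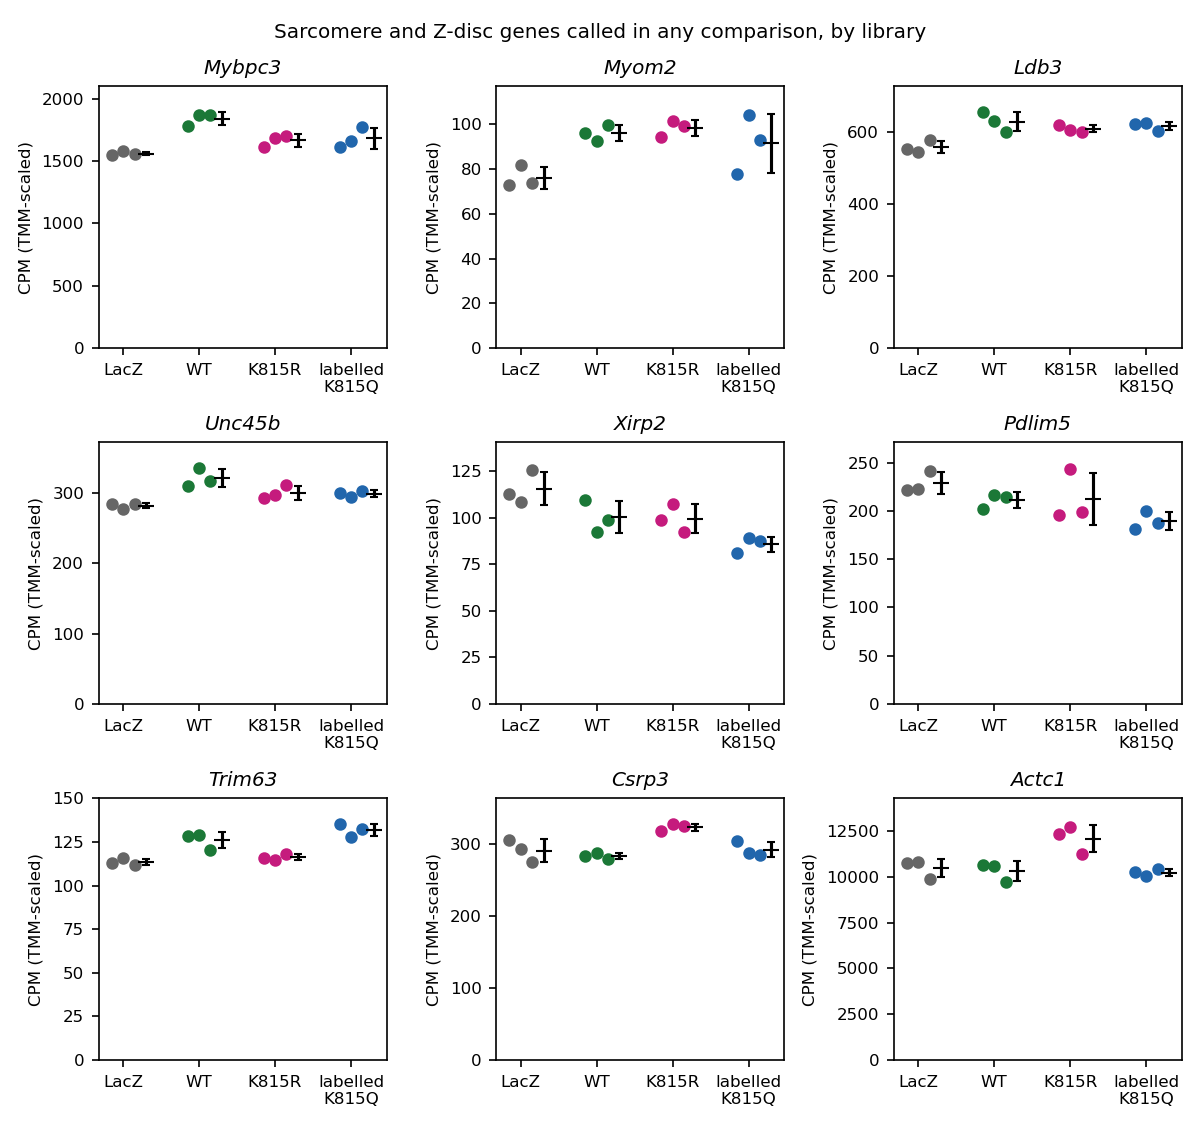
Levels of the 9 genes called in a pairwise comparison or in the test for any difference, in CPM scaled by TMM (axes from 0); points are the 12 libraries and the line with whiskers is the mean ± SD of 3. Mybpc3, Ldb3 and Unc45b lie above LacZ in all 9 libraries of the other groups, Xirp2 is lowest in labelled K815Q, and Csrp3 and Actc1 are highest in K815R.

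The 3 groups labelled as given KAT6A were also compared with each other, although labelled K815Q showed no rise of Kat6a and is not shown to carry a form of it. K815R and WT differed in 1 of 32 genes by edgeR, Csrp3, where 2.20% of all tested genes were called and 1.32% were higher. In this comparison 10 of the 32 had an unadjusted p under 0.05 by edgeR. The share of all genes with such a p is not given here. DESeq2 called 3, namely Csrp3, Actc1 and Des. The libraries labelled K815Q differed from WT in 0 of 32 genes by edgeR, where 1.07% of all genes were called. An unadjusted p under 0.05 by edgeR was found for 9 of the 32, or 28.1%, beside 14.4% of all genes. DESeq2 called 1, Smyd1. K815R differed from labelled K815Q in 0 of 32 genes by edgeR, where 0.363% of all genes were called. Here 8 of the 32, or 25%, had an unadjusted p under 0.05, beside 11.4% of all genes. DESeq2 called 3, namely Actc1, Des and Fhl2. Called counts of 1, 0 and 0 of 32 lie near the shares of all genes and by themselves show nothing particular to the sarcomere genes. In the comparisons with labelled K815Q, the shares with an unadjusted p under 0.05 lay above those of all genes. That difference was not tested. It is not shown to be particular to labelled K815Q, because the count in K815R against WT was higher than in either. The median log2 fold changes of the 32 genes were -0.020, -0.011 and 0.015 in these comparisons, beside -0.0031, -0.0035 and -8.2e-04 over all tested genes. In labelled K815Q, 11 of the 32 genes (34.4%) lay wholly below WT and 1 (3.1%) wholly above, where 10.3% and 9.00% of all genes did so.

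**Figure D4:**
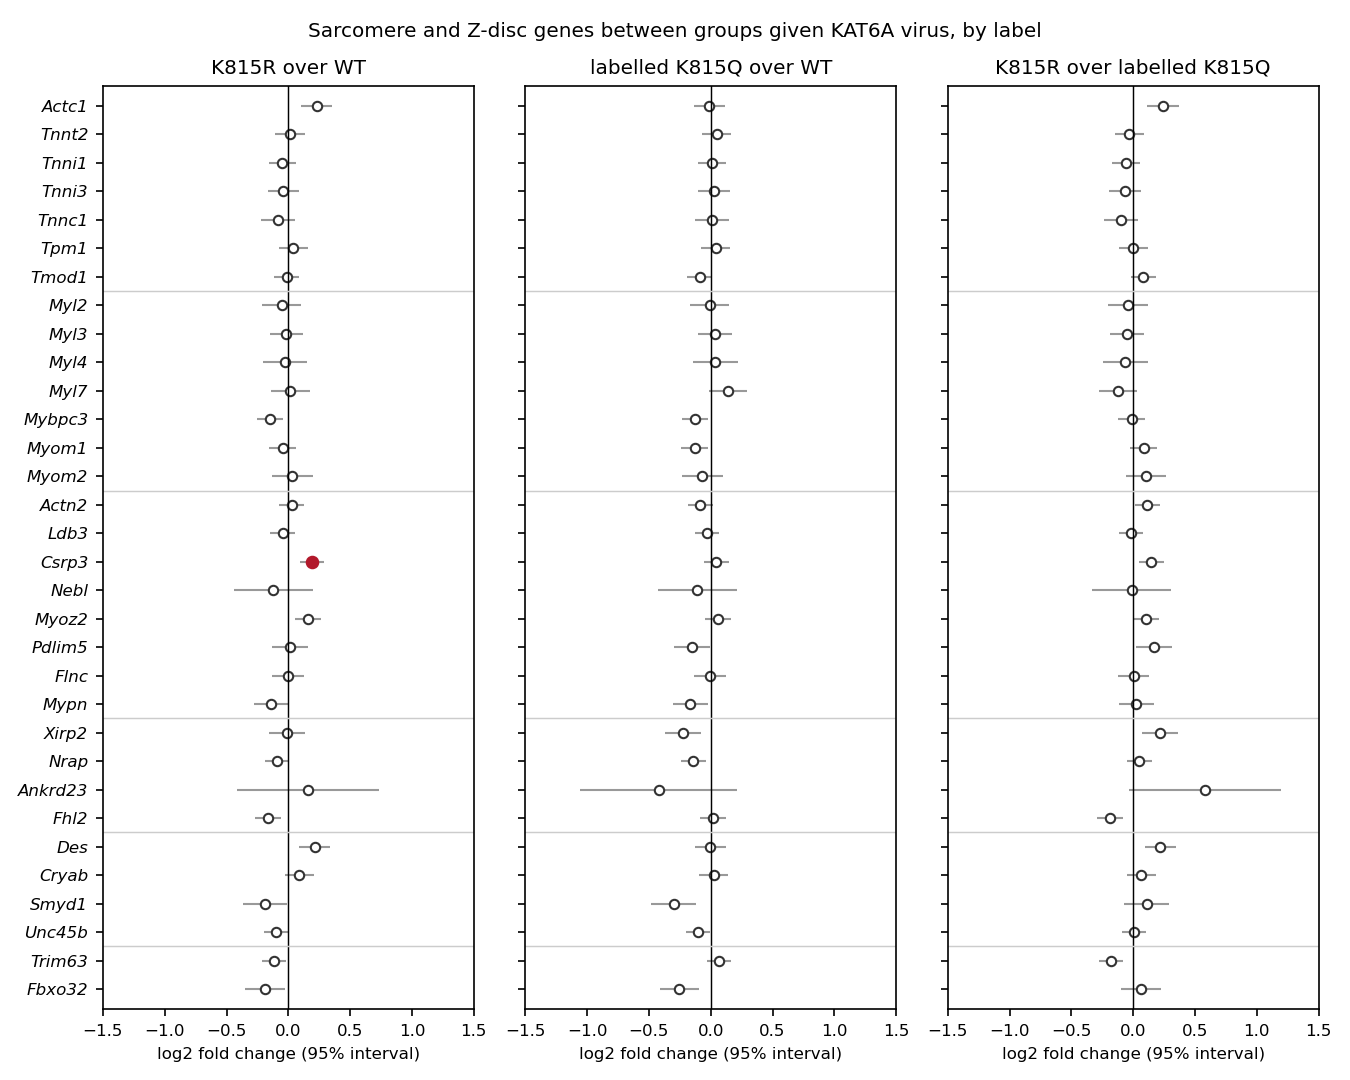
Log2 fold change of the 32 genes between the groups labelled WT, K815R and K815Q, with 95% intervals as bars and called genes as filled red points; the panels show K815R over WT, labelled K815Q over WT, and K815R over labelled K815Q. Csrp3 in K815R over WT is the 1 filled point, and Actc1 and Des lie to the right in both panels with K815R in front.

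Other genes of the sarcomere were taken from lists by role, each without the members above. Of 12 tested genes of the thick filament and M-band, 5 were called in WT against LacZ (3 higher, 2 lower), 1 in K815R (lower) and 4 in labelled K815Q (2 higher, 2 lower). Over all tested genes, 5.34%, 2.47% and 7.85% were called in these comparisons, in the same order. Myl1, the essential light chain of fast skeletal muscle, fell from 14.6 to 18.7 CPM in LacZ to 8.17 to 10.6 in WT, 9.18 to 9.99 in K815R and 8.16 to 10.3 in labelled K815Q. Its log2 fold changes of -0.80, -0.74 and -0.84 were larger in size than that of any of the 32 genes (edgeR adjusted p 1.62e-04, 5.18e-04 and 9.13e-05). Myh7b, a slow-type myosin heavy chain, rose by 0.57 in WT and 0.34 in labelled K815Q, and its log2 fold change in K815R against WT was -0.38 (edgeR adjusted p 1.93e-04). Mybpc2, the fast-muscle myosin-binding protein C, fell by 0.45 in WT and 0.57 in labelled K815Q on the log2 scale. The other genes in these counts, named after their values were seen, were Mylk3, a myosin light chain kinase (0.19 in WT), and Ckm, the muscle creatine kinase (0.20 in WT and 0.21 in labelled K815Q). Also chosen after its values were seen, Myh7, the slow beta-myosin heavy chain, ran from 3661 to 4715 CPM in LacZ, 3682 to 4190 in WT, 4945 to 5153 in K815R and 3251 to 3986 in labelled K815Q, so K815R lay above all others. It was called in K815R against WT and against labelled K815Q (0.37 and 0.48, edgeR adjusted p 0.0388 and 0.0281).

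In labelled K815Q against LacZ, where 4.98% of all tested genes were called lower, 2 of 14 other thin-filament genes fell. These were Acta1, skeletal alpha-actin (-0.34, edgeR adjusted p 0.0497), and Tpm3, a tropomyosin (-0.17, edgeR adjusted p 0.0495). In K815R against LacZ, where 2.47% of all tested genes were called, 1 of 23 other genes of the Z-disc and I-band rose and 1 fell. These were Ankrd1, a stretch-responsive partner of titin that rose by 0.46, and Cmya5, myospryn, which fell by 0.24 on the log2 scale. Ankrd1 was also higher in K815R than in WT (0.44, edgeR adjusted p 0.0465), and Fhl1, a LIM protein, was higher in K815R than in labelled K815Q (0.23, edgeR adjusted p 0.0471).

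Of 19 other genes of muscle protein turnover, 3 rose in WT, 1 in K815R and 1 in labelled K815Q against LacZ. Over all tested genes, 1.95%, 0.740% and 2.87% were called higher in these groups. Pik3ip1, an inhibitor of PI3-kinase, rose in all 3 groups, by log2 fold changes of 0.50, 0.29 and 0.50 (edgeR adjusted p 5.69e-06, 0.00366 and 4.22e-06). Its libraries ran from 55.1 to 63.3 CPM in LacZ and from 71.6 to 86.6 in the 9 others, with no overlap. Asb2, a ubiquitin ligase subunit, rose in WT by 0.24 (edgeR adjusted p 0.0103), as did Trim55, the ligase MuRF2, by 0.18 (edgeR adjusted p 0.0473), named after its values were seen. Fbxo40, a muscle ubiquitin ligase subunit, was called in the test for any difference (edgeR adjusted p 0.0466). Of 12 tested transcription regulators of muscle genes, among them Srf, Mrtfa, Mef2a, Mef2c, Mef2d, Myocd and Tead1, Hand2 was called, 0.27 higher in K815R than in LacZ (edgeR adjusted p 0.0295). In that comparison 2.47% of all tested genes were called.

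In bulk RNA, fewer muscle cells and less RNA per cell cannot be told apart. The summed level of 8 cardiomyocyte markers outside the list ran from 36178 to 37554 CPM in LacZ, 37068 to 38775 in WT, 39182 to 39498 in K815R and 35971 to 38208 in labelled K815Q, so the K815R libraries, in which Actc1 and Csrp3 were highest, lay above all others. Nppa, the atrial natriuretic peptide, carried most of this, at a mean of 11569 CPM in LacZ and 13533 in K815R. Without Nppa the other 7 summed to 24847 to 25771 CPM in LacZ, 26152 to 27397 in WT, 25327 to 26203 in K815R and 24429 to 26127 in labelled K815Q, so K815R overlapped LacZ, and WT, in which Mybpc3, Ldb3 and Unc45b rose, lay above LacZ. The median log2 fold change of the 8 in K815R was 0.026 against LacZ and -0.050 against WT. Of these 8 markers Pln was called in WT and in labelled K815Q, and Nppa in K815R against WT. The sum of 8 fibroblast markers ran from 11818 to 12686, 10960 to 12012, 11062 to 11510 and 11913 to 12803 CPM in the same order, with K815R wholly below LacZ, while the median log2 fold change of the 8 in K815R was -0.0047. Most of this sum was Col1a1, at 7213 to 8614 CPM over the 12 libraries, and Col3a1, at 2865 to 3475 CPM. Col1a2 varied widely between libraries, from 9.14 to 126 CPM. Against LacZ, Pdgfra fell and Postn rose in WT, and Postn and Tcf21 rose in labelled K815Q. Against WT, Pdgfra was higher in K815R and in labelled K815Q, and Postn was lower in K815R. The sum of 6 smooth muscle markers lay at 3577 to 4110 CPM, and that of 5 endothelial markers at 119 to 181 CPM, with overlap between all groups. The sum of 8 macrophage markers was 59.7 to 74.4 CPM in LacZ and 74.2 to 84.6 in the 9 others, with Lyz2 called higher in all 3 groups and Adgre1 called lower in labelled K815Q, at a mean of 2.15 CPM against 3.14 in LacZ. Markers of skeletal muscle were low, at 5.10 to 8.54 CPM in sum over 7 genes, and Myf5 had no count in any library, which allows up to 0.157 CPM. The part of cell makeup in the results was not tested.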

How the data were processed

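Poly(A) RNA of 12 libraries, 3 for each of 4 groups, was analysed from a table of raw read counts per Ensembl gene that the authors deposited. The submitters' processing notes name Trimmomatic 0.39, HISAT2 2.2.1, HTSeq 0.6.1 and edgeR, and the build Rnor_6.0; their roles and the strand setting of the counting are not given in the sources used here, so antisense and overlapping genes are uncertain (the library kit marks strand). Per the file's counters, which stayed out of library sizes, 25.6% to 26.9% of reads aligned to more than 1 place and 11.7% to 12.9% lay in no gene.

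TMM factors scaled the counts, and filterByExpr (minimum count 10, total 15) kept 14063 genes. The test was edgeR's quasi-likelihood test (edgeR 4.0.16, R 4.3.3, robust fit) on group means of all 12 libraries together, and p-values were adjusted by Benjamini-Hochberg over the kept genes, with calls at 0.05. Intervals are 95%. No pair of replicates agreed within sampling noise (chi-square per degree of freedom 4.54 to 8.74), and counts of at most 3 correspond to 0.118 to 0.157 CPM. The test was checked on simulated data, with changes set in WT against LacZ for genes drawn from all tested genes. At a true log2 change of 0.25 it called 18 of 50 genes, and at 0.5 it called 34 of 50. Of 13863 unchanged genes 8 were called. A change of the size reported here can therefore go uncalled. Isoform ratios were tested by exact permutation.

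The members, lists and alternatives were chosen with earlier results of these data known. Values by library are given for members called in any test and for Tnni1, Tnni3, Myl2, Myl3, Myl4, Myl7, Trim63 and Fbxo32; each role also names its member of highest mean CPM and of lowest p for any difference, and each other list up to 3 called genes of lowest adjusted p. The alternatives tried were scaling by RLE or by upper quartiles, no filter on counts, 10 counts in every library, DESeq2 1.42.0, a replicate term, fits of the 6 libraries compared or without labelled K815Q, and leaving out each library.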

Additional observations from a re-analysis of the deposited data

How the results depend on the processing

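No called fold change reversed in sign under any alternative run. Without a filter on low counts, the numbers of the 32 genes called were 4 in K815R against LacZ (1 in the analysis as reported), 7 in labelled K815Q against LacZ (4), 3 in K815R against WT (1), 3 in labelled K815Q against WT (0), 4 in K815R against labelled K815Q (0) and 12 for any difference (6). DESeq2 gave 3 in K815R against LacZ, 6 in labelled K815Q against LacZ, 3 in K815R against WT, 1 in labelled K815Q against WT, 3 in K815R against labelled K815Q and 13 for any difference. With the replicate number as a block the counts were 3, 5, 2, 1, 1 and 10 in the same order. RLE scaling gave 2 in K815R against WT, a fit of the 6 libraries compared gave 2 in labelled K815Q against WT, and without the libraries labelled K815Q there were 0 in K815R against WT and 3 for any difference. Leaving out each library in turn gave 2 to 4 in WT, 0 to 1 in K815R and 2 to 5 in labelled K815Q against LacZ, 0 to 2 in K815R against WT, 0 to 1 in labelled K815Q against WT and 3 to 8 for any difference. The Tnni1 to Tnni3 ratio had a largest group difference of 0.0933 to 0.126 in such fits, with exact permutation p from 0.0138 to 0.174. Over all genes, the counts without a filter were 600 in K815R against LacZ (348), 553 in K815R against WT (309), 423 in labelled K815Q against WT (151), 307 in K815R against labelled K815Q (51) and 2036 for any difference (1143). For K815R against labelled K815Q, DESeq2 gave 105, the block 86 and a fit of the 6 libraries 85, and for labelled K815Q against WT the block gave 232. Leaving out 1 library, the counts over all genes fell as low as 378 in WT, 173 in K815R and 360 in labelled K815Q against LacZ, 124 in K815R against WT, 50 in labelled K815Q against WT, 11 in K815R against labelled K815Q (98 at most) and 650 for any difference. The causes were not tested.

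The replicate numbers gave no clear pairing of the libraries. The correlation of same-numbered deviations from the group means ran from -0.13 to 0.12 over 18 pairs. It ran from -0.13 to 0.028 in pairs with LacZ and from 1.9e-04 to 0.12 among the other groups. In 15 of 36 cases a library correlated best with its own number in another group. The block is therefore given here alone, and the median half-width of the 95% intervals of the 32 genes, 0.13 on the log2 scale, limits what could be called.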
